A study of Arabidopsis thaliana with 24 samples.

Results

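Expansins and xyloglucan endotransglucosylase/hydrolases (XTHs) are wall-loosening proteins of growing plant organs, and 10 of their genes were followed here across natural and indoor long days. They were EXPA1 (AT1G69530), EXPA3 (AT2G37640), EXPA4 (AT2G39700), EXPA5 (AT3G29030), EXPA8 (AT2G40610), EXPA10 (AT1G26770), XTH4 (AT2G06850), XTH9 (AT4G03210), XTH15 (AT4G14130) and XTH22 (AT5G57560). They were taken by locus, and all 10 were present among the 27655 loci of the count tables and passed the filter on low counts. The study asked how flowering of Arabidopsis thaliana in natural long days differs from that in the laboratory. Its poly(A) RNA libraries were made from whole soil-grown seedlings aged 14 days with a kit that reads transcripts from their 3′ end, so counts depend little on transcript length. The 24 libraries fell into 8 groups of 3, from 4 settings harvested at ZT16 (evening, 16 h after dawn) and at ZT4 (morning, 4 h after dawn). In natural 2014 and natural 2013 the plants stood in an outdoor cage in July 2014 and June 2013, under garden fabric that dims sunlight without altering its balance of red and far-red light. LD+FR+TEMP was a growth chamber on long days, in which a 730 nm diode brought the red to far-red ratio to 1 and the air followed a programme of 15.8 to 22.8 °C. That programme stood at 17.9 °C at ZT4, and at 19.8 °C at ZT15 and 18.3 °C at ZT17. Lab LD was the standard chamber long day, whose light and temperature are not given in the sources used here. The labels name no strain or genotype for any of these groups and are silent on whether the 3 replicates were separate sowings, so the p-values measure only the spread between these libraries.

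The primary wall of a growing plant cell is a mesh of cellulose fibres bound to xyloglucan, a branched glucan. Expansins loosen the contacts between these polymers at low pH without cutting them, whereas XTHs cut xyloglucan and either join the end to another chain or release it. Many genes of both families respond to auxin, brassinosteroids and gibberellin, and several respond to shade, warmth or mechanical stimulation.

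The 250 bases in front of 4 of the gene starts are shown, read in the direction of the gene from RefSeq TAIR10.1. EXPA1 (plus strand, chr1:26141476-26141725) and EXPA8 (minus strand, chr2:16950706-16950955) are given because both were lower in every other setting than in lab LD in the morning. EXPA10 (plus strand, chr1:9259182-9259431) shares a sequence with EXPA1 but not its pattern, and XTH22 (minus strand, chr5:23308681-23308930) had the widest range of levels among the 10. Capitals mark matches, on either strand, to 7 short motifs.
EXPA1: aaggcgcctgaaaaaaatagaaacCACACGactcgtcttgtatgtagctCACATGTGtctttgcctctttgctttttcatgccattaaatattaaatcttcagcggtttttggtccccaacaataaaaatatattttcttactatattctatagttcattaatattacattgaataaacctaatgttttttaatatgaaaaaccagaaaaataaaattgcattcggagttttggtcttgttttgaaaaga
EXPA8: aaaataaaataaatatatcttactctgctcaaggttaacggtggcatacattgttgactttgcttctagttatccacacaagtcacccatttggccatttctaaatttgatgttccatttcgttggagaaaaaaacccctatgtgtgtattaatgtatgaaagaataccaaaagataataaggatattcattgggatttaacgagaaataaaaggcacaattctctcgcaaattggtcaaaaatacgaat
EXPA10: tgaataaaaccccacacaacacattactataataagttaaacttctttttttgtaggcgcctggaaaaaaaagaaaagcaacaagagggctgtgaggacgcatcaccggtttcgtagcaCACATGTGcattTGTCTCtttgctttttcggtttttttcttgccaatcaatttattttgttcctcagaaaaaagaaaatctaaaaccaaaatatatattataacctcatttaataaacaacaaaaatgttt
XTH22: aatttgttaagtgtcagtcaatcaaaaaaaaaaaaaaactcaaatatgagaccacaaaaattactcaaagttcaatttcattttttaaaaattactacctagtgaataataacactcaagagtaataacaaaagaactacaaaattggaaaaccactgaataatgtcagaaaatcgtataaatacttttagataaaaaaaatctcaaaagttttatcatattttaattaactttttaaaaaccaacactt
The motifs searched were the G-box CACGTG and the PBE-box CACATG, which PIF transcription factors can bind, and the brassinosteroid response elements CGTGCG and CGTGTG. The others were the auxin response element TGTCTC, the evening element AAATATCT and the heat shock element core GAANNTTC. EXPA1 and EXPA10 held the palindrome CACATGTG, which counts as overlapping PBE-boxes on both strands, at 201 and 131 bases before the gene start. Of all 27443 windows of this length, 11.1% held a PBE-box. EXPA1 also held a CGTGTG match, found in 5.37% of windows, and EXPA10 a TGTCTC, found in 10.9%. EXPA5 held TGTCTC at 149 and 94 bases before its start, and the windows of the other 7 loci held none of the 7 motifs. CACGTG was found in 6.49% of windows, CGTGCG in 1.57%, AAATATCT in 4.79% and GAANNTTC in 9.55%.

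Outdoor libraries held 6543615 to 10711582 counts each and indoor ones 12069812 to 16089156, so every outdoor library was shallower than every indoor one. The 10 loci held 0.0506 to 0.111% of the counts outdoors and 0.0888 to 0.129% indoors. Levels are given as CPM, the share of a library's counts scaled to a fixed total, after TMM scaling of library sizes, and they are compared between libraries, not between genes. A gene was called higher or lower where edgeR's quasi-likelihood F test, adjusted over the 18797 genes tested, gave p under 0.05. A log2 fold change, or log2 change for short, is printed with its standard error. The end sequences of the 10 transcripts had no near-identical copy elsewhere in the genome, but XTH15 overlaps AT4G14120 on the opposite strand by 382 bases. The strand of counting is not given in the sources used here, so XTH15 counts may include reads of that neighbour. The 7 green leaf markers summed to 31960 to 75780 CPM and all 11 root markers were detected in each group. Floral organ markers, from AP1 to SEP3, summed to 6.24 to 17.5 CPM outdoors and 0.857 to 2.47 CPM indoors. Seed storage markers summed to at most 17.8 CPM, in LD+FR+TEMP replicate 3 at ZT4, and the lowest library of that group had 0.0683 CPM. In such bulk samples fewer cells of a type and less RNA per cell cannot be told apart.

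Among the 8 groups the 10 loci ranged very differently. XTH22, also known as TCH4 and induced by touch, brassinosteroids and temperature shifts, had the widest range of group means, 63.0 to 3.85 CPM, a ratio of 16.3. EXPA8 followed at 10.3 (122 to 11.8 CPM), XTH15 at 5.82 (18.2 to 3.13 CPM) and XTH9 at 4.18 (225 to 53.7 CPM). EXPA3 and EXPA4, expansins of many tissues, were the steadiest, with ratios of 1.5 (26.9 to 17.9 CPM) and 1.66 (71.2 to 42.9 CPM). The ratios of EXPA1, EXPA5, EXPA10 and XTH4 were 3.08, 2.73, 2.29 and 1.78. In lab LD at ZT4, EXPA1 and EXPA8 reached their highest means, 406 ± 93.9 CPM and 122 ± 26.6 CPM (SD, n = 3), and no library of another group came up to the lowest of those 3. Natural 2013 at ZT4 was the highest group for XTH4 (451 ± 20.3 CPM), XTH15 (18.2 ± 2.19 CPM) and XTH22 (63.0 ± 22.4 CPM). Natural 2014 at ZT4 was the lowest for EXPA3 (17.9 ± 4.12 CPM), EXPA8 (11.8 ± 6.81 CPM), XTH9 (53.7 ± 2.84 CPM) and XTH22 (3.85 ± 0.463 CPM). For EXPA3 and EXPA4 every group overlapped the next one in the order of means. For EXPA1 only lab LD at ZT4 stood apart from the next group, and the other 7 formed a chain of overlapping ranges.

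**Figure D1:**
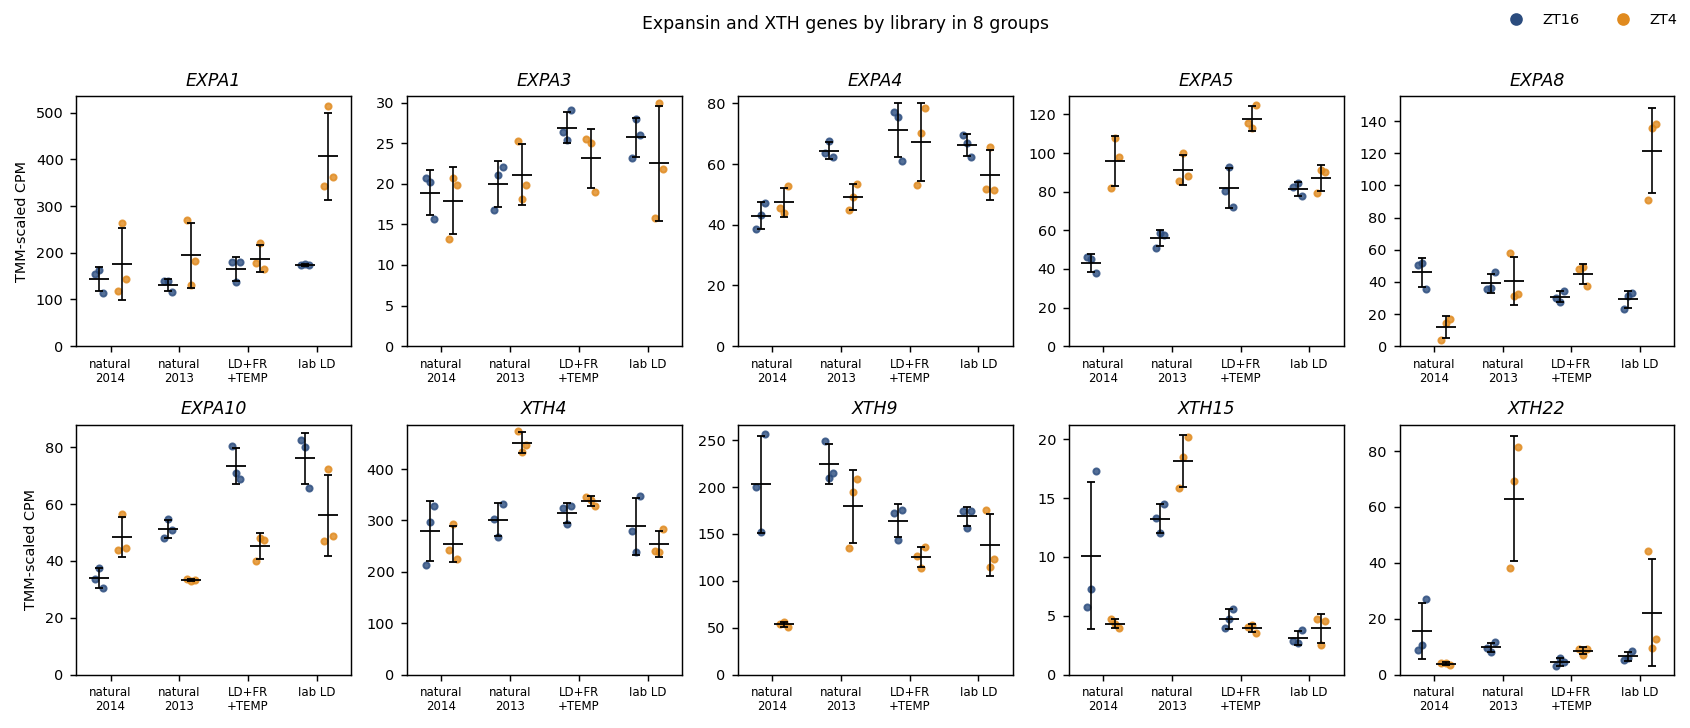
TMM-scaled CPM of the 10 loci in each library, in 1 panel per gene with a linear axis from 0; settings run along the x axis, blue points are ZT16 and orange points ZT4, and bars give the mean and SD of 3 libraries. EXPA1 and EXPA8 peak in lab LD at ZT4, XTH4, XTH15 and XTH22 in natural 2013 at ZT4, and XTH9 is low in natural 2014 at ZT4.

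At ZT4 the expansins EXPA1 and EXPA8 were lower in all 3 other settings than in lab LD. EXPA1, which is known from growing hypocotyls and leaves and from guard cells, had 119, 264 and 145 CPM in natural 2014, 269.8, 132 and 183 CPM in natural 2013, 177, 221 and 164 CPM in LD+FR+TEMP, against 342, 514 and 363 CPM in lab LD. All 9 libraries of the other settings lay below the 3 of lab LD. EXPA1 was 2.30-fold lower in natural 2014 (log2 fold change -1.20 ± 0.23, adjusted p = 0.00016), 2.08-fold lower in natural 2013 (-1.06 ± 0.23, adjusted p = 0.00129) and 2.165-fold lower in LD+FR+TEMP (-1.11 ± 0.23, adjusted p = 0.00136). These 3 comparisons share the lab LD libraries and are not independent. EXPA8, known as an auxin-induced expansin, had 4.05, 14.6 and 16.8 CPM in natural 2014, 57.8, 31.3 and 32.3 CPM in natural 2013, 48.1, 49.1 and 37.5 CPM in LD+FR+TEMP, against 91.0, 136 and 138 CPM in lab LD. All 9 libraries of the other settings were again below lab LD, and natural 2014 lay below every library of the other 3 settings. EXPA8 was 10.13-fold lower in natural 2014 (log2 change -3.34 ± 0.29, adjusted p = 1.15e-09), 2.99-fold lower in natural 2013 (log2 change -1.58 ± 0.26, adjusted p = 4.96e-05) and 2.71-fold lower in LD+FR+TEMP (log2 change -1.44 ± 0.25, adjusted p = 0.000227).

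XTH22 differed from lab LD in opposite directions in the 2 outdoor years in the morning. At ZT4 it had 4.22, 4.00 and 3.33 CPM in natural 2014, 38.1, 69.1 and 81.6 CPM in natural 2013, 9.29, 7.03 and 9.05 CPM in LD+FR+TEMP, against 44.2, 9.57 and 12.7 CPM in lab LD. The highest lab LD library stood apart from the other 2 and above the lowest library of natural 2013. XTH22 fell to 3.85 ± 0.463 CPM in natural 2014, against 22.2 ± 19.1 CPM in lab LD (SD, n = 3 each; log2 change -2.55 ± 0.53, adjusted p = 0.000317). It rose in natural 2013 (log2 change 1.48 ± 0.38, adjusted p = 0.00505) and fell in LD+FR+TEMP (log2 change -1.41 ± 0.42, adjusted p = 0.02). Without lab LD replicate 1 these 3 log2 values were -1.53, 2.49 and -0.40, and the last lost its call (adjusted p = 0.496). It was lost as well without LD+FR+TEMP replicate 1 (-1.48, adjusted p = 0.0512) or replicate 2 (-1.30, adjusted p = 0.0831), and in a fit of those 2 groups alone (adjusted p = 0.0696). In that same lab LD replicate 1, 2 of the 4 tested calmodulin-type touch genes were the highest of the group by a wide margin: CML12 (TCH3) had 70.1 CPM, against 8.51 and 19.2 CPM in the others, and CML38 24.5 CPM, against 3.93 and 3.98 CPM. The other 2 did not stand apart: CML24 (TCH2) had 78.5, 79.4 and 50.02 CPM and CAM2 (TCH1) 63.9, 49.2 and 59.9 CPM in lab LD replicates 1, 2 and 3. XTH18 had 30.3 CPM there, against 0.900 and 2.03 CPM.

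The other XTH loci each had their own pattern at ZT4. XTH15 (XTR7), known for elongation in shade, had 4.73, 4.29 and 3.94 CPM in natural 2014, 15.8, 18.5 and 20.2 CPM in natural 2013, 4.03, 4.20 and 3.56 CPM in LD+FR+TEMP, against 4.75, 2.54 and 4.53 CPM in lab LD. The 3 natural 2013 libraries stood well above all others, which overlapped each other. XTH15 was 4.55-fold higher in natural 2013 (log2 change 2.19 ± 0.27, adjusted p = 1.63e-06), and did not pass in natural 2014 (log2 change 0.11 ± 0.34, adjusted p = 0.812) or in LD+FR+TEMP (log2 change -0.02 ± 0.30, adjusted p = 0.98). XTH9, known from shoot tips and, with XTH4, from wood-type secondary walls, had 53.7, 56.6 and 50.9 CPM in natural 2014, 136, 195 and 208 CPM in natural 2013, 126, 114 and 136 CPM in LD+FR+TEMP, against 176, 115 and 123 CPM in lab LD. Natural 2014 was low in all 3 libraries and below every other one. XTH9 was 2.57-fold lower in natural 2014 (log2 change -1.36 ± 0.17, adjusted p = 5.26e-07), and it did not pass in natural 2013 (log2 change 0.38 ± 0.17, adjusted p = 0.0889) or LD+FR+TEMP (log2 change -0.14 ± 0.17, adjusted p = 0.614). XTH4 had 243, 293 and 226 CPM in natural 2014, 473, 434 and 446 CPM in natural 2013, 345, 341 and 328 CPM in LD+FR+TEMP, against 240.1, 238 and 284 CPM in lab LD. Natural 2013 was highest in all 3 libraries, LD+FR+TEMP came next, and natural 2014 overlapped lab LD. XTH4 rose in natural 2013 (log2 change 0.83 ± 0.14, adjusted p = 5.88e-05) and in LD+FR+TEMP (log2 change 0.41 ± 0.14, adjusted p = 0.0367), and did not pass in natural 2014 (log2 change 0.00 ± 0.14, adjusted p = 0.997). The LD+FR+TEMP call was lost without any 1 of lab LD replicates 1 and 2 and LD+FR+TEMP replicates 1, 2 and 3, with log2 values of 0.37 to 0.43 and adjusted p of 0.0594 to 0.113.

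Of the remaining expansins at ZT4, EXPA5 had 81.9, 108 and 97.7 CPM in natural 2014, 85.6, 100.1 and 88.3 CPM in natural 2013, 116, 113 and 125 CPM in LD+FR+TEMP, against 79.2, 91.4 and 90.3 CPM in lab LD. The 3 LD+FR+TEMP libraries were the highest, and EXPA5 rose there (log2 change 0.44 ± 0.11, adjusted p = 0.00634), while natural 2014 (0.14 ± 0.11) and natural 2013 (0.07 ± 0.11) did not pass. EXPA10, whose overexpression enlarges Arabidopsis leaves, had 43.9, 56.6 and 44.5 CPM in natural 2014, 33.5, 32.9 and 33.4 CPM in natural 2013, 40.0, 48.2 and 47.4 CPM in LD+FR+TEMP, against 46.9, 72.5 and 48.7 CPM in lab LD. It fell in natural 2013 (log2 change -0.75 ± 0.14, adjusted p = 0.000294), whose 3 libraries lay close together and below all others, and did not pass in natural 2014 (-0.21 ± 0.14) or LD+FR+TEMP (-0.31 ± 0.14). EXPA3 and EXPA4 passed in none of the 3 comparisons, with log2 fold changes between -0.31 and 0.26. In all, 4 of the 10 loci were called in natural 2014, where 44.3% of all genes were, 6 in natural 2013 against 29.0% of all genes, and 5 in LD+FR+TEMP against 16.9%. The median of the 10 log2 fold changes was -0.28, -0.0043 and -0.08 in natural 2014, natural 2013 and LD+FR+TEMP, and that of all genes -0.047, -0.026 and -0.011. Floral organ markers moved beside the outdoor comparisons, with 3 of 6 tested higher in natural 2014 and 6 of 6 in natural 2013 than in lab LD, and their part in these results was not tested. Of the root markers 2 of 9 tested were higher in LD+FR+TEMP and 1 lower in natural 2014, and their part was not tested either.

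**Figure D2:**
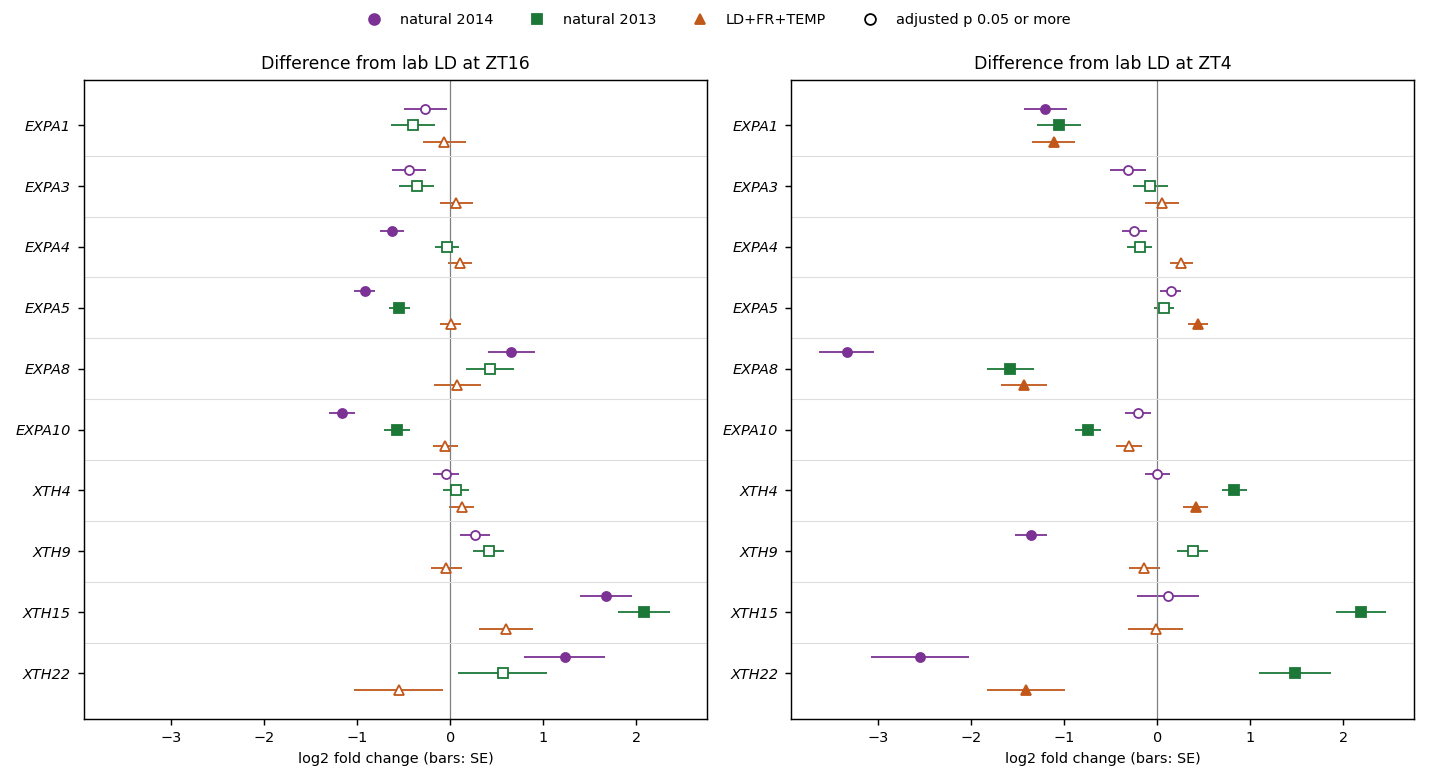
Log2 fold change from lab LD of the 10 loci at ZT16 (left) and ZT4 (right) in natural 2014 (purple circles), natural 2013 (green squares) and LD+FR+TEMP (orange triangles), with SE bars; filled symbols had an adjusted p under 0.05. At ZT4 EXPA1 and EXPA8 are left of 0 in all 3 settings, while XTH22 lies at -2.55 in natural 2014 and 1.48 in natural 2013.

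Between the outdoor years at ZT4, all 4 XTH loci and EXPA8 were lower in natural 2014 than in natural 2013. XTH22 had 4.22, 4.00 and 3.33 CPM in natural 2014, against 38.1, 69.1 and 81.6 CPM in natural 2013, and the years did not overlap. It was 16.3-fold lower in natural 2014 (log2 change -4.03 ± 0.51, adjusted p = 1.13e-06). XTH15 was 4.21-fold lower (log2 change -2.07 ± 0.30, adjusted p = 7.03e-06), XTH9 3.34-fold lower (log2 change -1.74 ± 0.18, adjusted p = 3.07e-08) and XTH4 1.77-fold lower (log2 change -0.83 ± 0.14, adjusted p = 4.06e-05). EXPA8 was 3.39-fold lower (log2 change -1.76 ± 0.30, adjusted p = 5.53e-05), whereas EXPA10 was 1.46-fold higher in natural 2014 (log2 change 0.54 ± 0.15, adjusted p = 0.00583). The EXPA10 call was lost without natural 2014 replicate 2 (log2 fold change 0.41, adjusted p = 0.0545). In each of these 6 loci, which were taken because they were called, the 3 libraries of 1 year lay wholly above the 3 of the other. How many of all genes did so was not counted. EXPA1, EXPA3, EXPA4 and EXPA5 did not pass, with log2 fold changes from -0.24 ± 0.20 for EXPA3 to 0.07 ± 0.11 for EXPA5. The 6 of 10 called stood beside 31.0% of all genes called. The 1 higher and 5 lower loci stood beside 16.5% higher and 14.5% lower of all genes. The median of the 10 was -0.53, against 0.00095 for all genes. Each year is 1 season of plants, so the year, its weather and its growth dates cannot be told apart.

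The wider families were read with lists of 29 further expansin loci, 17 of them tested, and 29 further XTH loci, 21 of them tested. In natural 2014 against natural 2013 at ZT4, 2 of the 21 XTH genes were higher and 10 lower, with a median of -0.75. XTH16 had 16.4, 20.9 and 18.03 CPM in natural 2014, against 72.4, 92.6 and 96.6 CPM in natural 2013 (log2 change -2.24 ± 0.19, adjusted p = 2.66e-09). XTH27, which is known from leaf vein tracheary cells, had 29.4, 56.1 and 32.3 CPM in natural 2014, against 97.2, 94.3 and 118 CPM in natural 2013 (log2 change -1.39 ± 0.19, adjusted p = 2.33e-06). The 2 that were higher in natural 2014 were XTH32 (log2 change 0.80 ± 0.11, adjusted p = 2.26e-06) and XTH19 (log2 change 0.80 ± 0.29, adjusted p = 0.0405), the last a root gene. Of the 17 expansins 3 were higher and 4 lower, with a median of -0.25. The shares among all genes were 16.5% higher and 14.5% lower, and the lists were not tested against each other. EXLA1, of the expansin-like branch, had 1.01, 1.57 and 0.909 CPM in natural 2014, against 11.9, 21.8 and 14.2 CPM in natural 2013 (log2 change -3.73 ± 0.47, adjusted p = 1.11e-06), and EXLA2 was lower as well (log2 change -1.53 ± 0.18, adjusted p = 5.35e-07). EXPA16 (log2 change 1.89 ± 0.36, adjusted p = 0.000222) and EXPA14 (log2 change 1.81 ± 0.49, adjusted p = 0.00538) were higher in natural 2014.

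**Figure D3:**
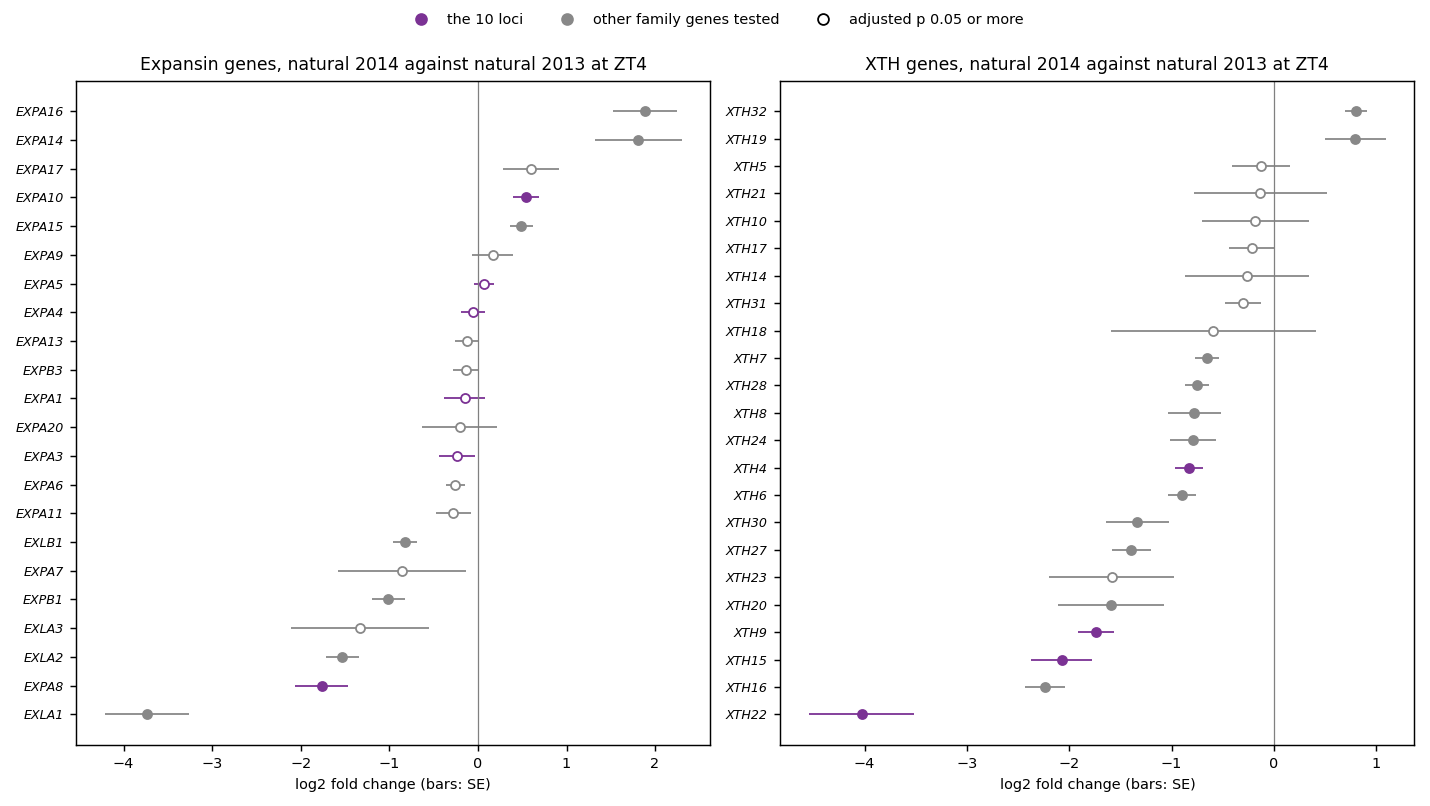
Log2 fold change of natural 2014 against natural 2013 at ZT4 for the tested expansin genes (left) and XTH genes (right), ordered by value, with SE bars; purple marks the 10 loci, grey the other family members, and filled symbols an adjusted p under 0.05. EXPA18, XTH25 and XTH33 are left out because a group held 3 counts or fewer; most filled XTH symbols lie left of 0, down to -4.03 for XTH22.

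Genes that build the wall polymers were counted in the same way. Of 10 genes for cellulose and xyloglucan synthesis, 8 were lower and none was higher in natural 2014 than in natural 2013 at ZT4, with a median of -0.54, where 14.5% of all genes were lower. CSLC4, which makes the xyloglucan backbone, had 2.20, 3.71 and 3.03 CPM in natural 2014, against 9.94, 10.97 and 13.3 CPM in natural 2013 (log2 change -1.92 ± 0.23, adjusted p = 3.63e-07). XXT1, a xylosyltransferase that adds the side chains, had 3.21, 4.14 and 3.79 CPM in natural 2014, against 14.2, 17.2 and 16.3 CPM in natural 2013 (log2 change -2.08 ± 0.29, adjusted p = 4.43e-06). For both genes every natural 2014 library was below every natural 2013 one. Of the touch genes of the calmodulin family 4 of the 4 tested were lower, with a median of -1.25, beside the same 14.5%. CML24 (TCH2) had 68.8, 65.4 and 74.1 CPM in natural 2014, against 137, 160.2 and 168 CPM in natural 2013 (log2 change -1.16 ± 0.17, adjusted p = 6.21e-06). CML38 was also lower (log2 change -2.52 ± 0.69, adjusted p = 0.00648). The others passed closer to the threshold, at adjusted p of 0.0171 (log2 change -1.34) and 0.0495 (log2 change -0.31). Of the floral and root markers, 0 of 6 and 1 of 9 tested were called between the years at ZT4. Of the 7 green leaf markers 2 were higher and 4 lower in natural 2014. The part of these markers was not tested.

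LD+FR+TEMP was programmed on the Seattle temperatures of June 2013, and the design sets natural 2013 against it. At ZT4, 4 of the 10 loci were higher in natural 2013, all of them XTHs, and 3 expansins were lower, where 23.1% of all genes were called, 12.0% of all genes as higher and 11.1% as lower. The median of the 10 was -0.034, against -0.0084 for all genes. XTH22 had 38.1, 69.1 and 81.6 CPM in natural 2013, against 9.29, 7.03 and 9.05 CPM in LD+FR+TEMP, and was 7.42-fold higher in natural 2013 (log2 change 2.89 ± 0.42, adjusted p = 1.86e-05). XTH15 had 15.8, 18.5 and 20.2 CPM in natural 2013, against 4.03, 4.20 and 3.56 CPM in LD+FR+TEMP, and was 4.62-fold higher (log2 change 2.21 ± 0.27, adjusted p = 2.41e-06). For both XTHs every natural 2013 library was above every LD+FR+TEMP one. The changes of XTH4 (log2 change 0.42 ± 0.14, adjusted p = 0.0271) and XTH9 (log2 change 0.52 ± 0.17, adjusted p = 0.0244) were smaller, as were the lower levels of EXPA4 (log2 change -0.45 ± 0.13, adjusted p = 0.0138), EXPA5 (log2 change -0.37 ± 0.11, adjusted p = 0.0161) and EXPA10 (log2 change -0.44 ± 0.14, adjusted p = 0.026). EXPA1 (0.06 ± 0.23), EXPA3 (-0.13 ± 0.19) and EXPA8 (-0.14 ± 0.26) did not pass.

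Each of these 5 smaller calls was lost when certain single libraries were left out. The XTH4 call was lost without any 1 of LD+FR+TEMP replicates 1, 2 and 3 and natural 2013 replicates 1 and 3 (adjusted p 0.0559 to 0.0915). The XTH9 call was lost without LD+FR+TEMP replicate 1 or 2 or natural 2013 replicate 2 or 3 (0.0579 to 0.144). The EXPA10 call was lost without LD+FR+TEMP replicate 2 or 3 or any natural 2013 replicate (0.0655 to 0.0921). The EXPA4 call was lost without LD+FR+TEMP replicate 2 or 3 or natural 2013 replicate 1 (0.0516 to 0.102), and the EXPA5 call without LD+FR+TEMP replicate 3 or natural 2013 replicate 1 or 3 (0.0651 to 0.0785). Among the touch genes 4 of 4 tested were higher in natural 2013 than in LD+FR+TEMP, with a median of 1.62, beside 12.0% of all genes. CML12 had 59.9, 64.9 and 78.6 CPM in natural 2013, against 14.3, 14.7 and 14.5 CPM in LD+FR+TEMP (log2 change 2.23 ± 0.42, adjusted p = 0.000436). All 6 floral markers tested were higher and 3 of 9 root markers lower in natural 2013 than in LD+FR+TEMP, and their part was not tested.

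In the evening none of the 10 loci passed the test between the indoor settings. In LD+FR+TEMP against lab LD at ZT16, 0 of the 10 loci were called by edgeR, where 2.65% of all genes were, and 0 by DESeq2. XTH15 alone, 1 of the 10, passed before adjustment (log2 change 0.60 ± 0.29, adjusted p = 0.273), and the log2 fold changes of all 10 lay between -0.55 and 0.60. The median of the 10 was 0.035, against 0.00079 for all genes. Root markers moved in this comparison, with 4 of 9 tested higher in LD+FR+TEMP, and their part was not tested.

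Against lab LD at ZT16, EXPA5 and EXPA10 were lower and XTH15 was higher in both outdoor years. EXPA10 had 33.7, 37.5 and 30.6 CPM in natural 2014, 48.1, 54.6 and 50.7 CPM in natural 2013, 80.5, 70.8 and 68.9 CPM in LD+FR+TEMP, against 82.5, 80 and 65.6 CPM in lab LD. Natural 2014 was lowest, natural 2013 lay between, and the indoor settings overlapped above both. EXPA10 was 2.24-fold lower in natural 2014 (log2 change -1.16 ± 0.14, adjusted p = 5.9e-07) and 1.49-fold lower in natural 2013 (log2 change -0.57 ± 0.14, adjusted p = 0.00281). EXPA5 had 46.1, 45.4 and 37.9 CPM in natural 2014, 51.0, 58.5 and 57.8 CPM in natural 2013, 80.2, 92.9 and 72.2 CPM in LD+FR+TEMP, against 82.3, 84.6 and 77.7 CPM in lab LD, in the same order and with no overlap of the years or of outdoor with indoor libraries. It was 1.89-fold lower in natural 2014 (log2 change -0.92 ± 0.11, adjusted p = 8.24e-07) and 1.46-fold lower in natural 2013 (log2 change -0.55 ± 0.11, adjusted p = 0.000683). EXPA4 was 1.54-fold lower in natural 2014 (log2 change -0.63 ± 0.13, adjusted p = 0.000543) and did not pass in natural 2013 (log2 change -0.04 ± 0.13, adjusted p = 0.858). EXPA3 (-0.44 ± 0.18 and -0.36 ± 0.19) and EXPA1 (-0.27 ± 0.23 and -0.40 ± 0.23) did not pass in either natural 2014 or natural 2013.

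Of the 4 XTH loci among the 10, XTH15 alone rose in both years at ZT16. It had 5.75, 7.28 and 17.3 CPM in natural 2014, 13.3, 12.0 and 14.5 CPM in natural 2013, 3.94, 4.68 and 5.58 CPM in LD+FR+TEMP, against 2.88, 2.69 and 3.81 CPM in lab LD, and every outdoor library was above every indoor one. It was 3.20-fold higher in natural 2014 (log2 change 1.68 ± 0.28, adjusted p = 4.72e-05) and in natural 2013 4.23-fold higher (log2 change 2.08 ± 0.28, adjusted p = 5.42e-06). Without natural 2014 replicate 3 the first value was 1.06 (adjusted p = 0.000734). XTH22 had 8.81, 10.7 and 27.2 CPM in natural 2014, 9.54, 8.16 and 11.5 CPM in natural 2013, 3.15, 5.92 and 4.32 CPM in LD+FR+TEMP, against 5.26, 6.04 and 8.40 CPM in lab LD. The libraries of natural 2014 lay above those of lab LD, and 1 of them, replicate 3, stood above all others. It passed in natural 2014 (log2 change 1.23 ± 0.44, adjusted p = 0.0312) and not in natural 2013 (log2 change 0.57 ± 0.48, adjusted p = 0.402). Without natural 2014 replicate 3 it was 0.56 (adjusted p = 0.378), and the call was also lost without lab LD replicate 1 (1.08, adjusted p = 0.116) or 2 (1.17, adjusted p = 0.083). In that natural 2014 replicate CML12 had 52.8 CPM, against 30.9 and 27.6 CPM in the other 2, and EXLA1 had 15.7 CPM, against 5.12 and 8.68 CPM. The other 3 tested touch genes, CML24, CAM2 and CML38, were also highest in it among the 3 libraries.

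EXPA8 had 50.4, 51.9 and 35.7 CPM in natural 2014, 35.7, 36.0 and 46.0 CPM in natural 2013, 30.3, 27.6 and 34.5 CPM in LD+FR+TEMP, against 23.2, 31.2 and 33.1 CPM in lab LD. Lab LD, the highest setting in the morning, had the lowest mean here. It was 1.58-fold higher in natural 2014 (log2 change 0.66 ± 0.26, adjusted p = 0.0464), and did not pass in natural 2013 (log2 change 0.43 ± 0.26, adjusted p = 0.231). The natural 2014 call was lost without any 1 of lab LD replicates 1, 2 and 3 and natural 2014 replicates 1 and 2 (log2 fold change 0.50 to 0.76, adjusted p = 0.0523 to 0.2), and with DESeq2 (adjusted p = 0.117). XTH4 (-0.04 ± 0.14 and 0.06 ± 0.14) and XTH9 (0.27 ± 0.16 and 0.41 ± 0.17) did not pass in natural 2014 or natural 2013. In an edgeR fit of natural 2013 and lab LD at ZT16 alone, XTH9 passed (adjusted p = 0.000366). So did EXPA1 (0.000572), EXPA8 (0.00862), XTH22 (0.0152) and EXPA3 (0.0171) in that fit. XTH9 also passed there with a replicate block (0.0498), and EXPA3 in a fit of natural 2014 and lab LD alone (0.00788). In all, 6 of the 10 were called in natural 2014, where 35.8% of all genes were, and 3 in natural 2013 against 29.1%. The medians were -0.16 and 0.011, against -0.011 and -0.012 for all genes. Of the floral markers 5 of 6 tested were higher in natural 2014 and 6 of 6 in natural 2013 than in lab LD, and 0 of 9 and 3 of 9 root markers were lower. Their part was not tested.

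Between the outdoor years at ZT16, 2 of the 10 loci were called, where 5.16% of all genes were. They were EXPA4 (log2 change -0.59 ± 0.13, adjusted p = 0.00905) and EXPA10 (log2 change -0.59 ± 0.14, adjusted p = 0.0148), both lower in natural 2014 than in natural 2013. EXPA4 had 38.5, 43.0 and 47.3 CPM in natural 2014, against 63.7, 67.4 and 62.2 CPM in natural 2013, with no overlap. Both calls were lost without natural 2013 replicate 2 (adjusted p = 0.0584 for EXPA4 and 0.086 for EXPA10) or natural 2014 replicate 1 (0.0617 and 0.0524), and that of EXPA10 without natural 2014 replicate 3 (0.063). The other 8 loci did not pass, with log2 fold changes from -0.40 for XTH15 to 0.66 for XTH22. The median of the 10 was -0.13, against 0.0061 for all genes. Against LD+FR+TEMP at ZT16, natural 2013 was higher in XTH15 (log2 change 1.48 ± 0.27, adjusted p = 0.000284) and lower in EXPA5 (log2 change -0.55 ± 0.11, adjusted p = 0.000956) and EXPA10 (log2 change -0.52 ± 0.14, adjusted p = 0.00821), 3 of 10 where 21.0% of all genes were called. The other 7 did not pass, with log2 fold changes from -0.43 for EXPA3 to 1.12 for XTH22 and a lowest adjusted p of 0.0512. In an edgeR fit of those groups alone XTH22 (adjusted p = 0.00206), XTH9 (0.00751) and EXPA3 (0.0233) passed. XTH9 (0.45) also passed with DESeq2's Wald test (adjusted p = 0.0448). The median was -0.10, against -0.0064 for all genes. All 6 floral markers tested were higher and 7 of 9 root markers lower in natural 2013 there, and their part was not tested.

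Between evening and morning, EXPA8, EXPA10 and XTH22 changed in opposite directions in different settings. EXPA8 had 50.4, 51.9 and 35.7 CPM at ZT16, against 4.05, 14.6 and 16.8 CPM at ZT4, in natural 2014, and 23.2, 31.2 and 33.1 CPM at ZT16, against 91.0, 136 and 138 CPM at ZT4, in lab LD. In natural 2014 every evening library was above every morning one, and in lab LD every evening library was below. EXPA8 was 3.84-fold higher at ZT16 than at ZT4 in natural 2014 (log2 change 1.94 ± 0.29, adjusted p = 5.14e-06), and 4.16-fold lower in lab LD (log2 change -2.06 ± 0.26, adjusted p = 6.87e-07). It did not pass in natural 2013 (log2 change -0.05 ± 0.26, adjusted p = 0.908) or LD+FR+TEMP (log2 change -0.55 ± 0.25, adjusted p = 0.126). The test of the difference between time effects gave 4.00 ± 0.39, adjusted p = 1e-08 for natural 2014 against lab LD and 1.99 ± 0.40, adjusted p = 0.000739 for natural 2014 against natural 2013. It gave 2.01 ± 0.36, adjusted p = 0.000285 for natural 2013 against lab LD. For LD+FR+TEMP against lab LD it gave 1.51 ± 0.35, adjusted p = 0.0132, which without lab LD replicate 1 at ZT16 was 1.37 (adjusted p = 0.0508).

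XTH22 had 8.81, 10.7 and 27.2 CPM at ZT16, against 4.22, 4.00 and 3.33 CPM at ZT4, in natural 2014, and 9.54, 8.16 and 11.5 CPM at ZT16, against 38.1, 69.1 and 81.6 CPM at ZT4, in natural 2013. The times did not overlap in either year, and evening was the higher time in natural 2014 and the lower in natural 2013. At ZT16 it was 4.00-fold higher in natural 2014 (log2 change 2.0 ± 0.55, adjusted p = 0.00409), 6.46-fold lower in natural 2013 (log2 change -2.69 ± 0.44, adjusted p = 2.25e-05) and 3.43-fold lower in lab LD (log2 change -1.78 ± 0.42, adjusted p = 0.00262). Without natural 2014 replicate 3 at ZT16 the first was 1.34 (adjusted p = 0.0566), and without lab LD replicate 1 at ZT4 the last was -0.76 (adjusted p = 0.14). In LD+FR+TEMP it did not pass (log2 change -0.92 ± 0.47, adjusted p = 0.173). The difference between time effects was 4.69 ± 0.70, adjusted p = 2.98e-05 for natural 2014 against natural 2013, and 3.78 ± 0.69, adjusted p = 0.000123 for natural 2014 against lab LD. Leaving out 1 library at a time, the first was 4.03 to 4.98 and the second 2.76 to 4.13, lowest without natural 2014 replicate 3 at ZT16 and without lab LD replicate 1 at ZT4. Every adjusted p stayed under 0.05, the largest being 0.000859. The calmodulin-like touch genes had 0 of 4 higher and 2 of 4 lower at ZT16 in natural 2014, and 3 of 4 lower in natural 2013, beside 45.7% and 35.5% of all genes called in either direction.

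XTH9 had 200, 152 and 256 CPM at ZT16, against 53.7, 56.6 and 50.9 CPM at ZT4, in natural 2014. Its evening libraries were all above its morning ones there, and it was 3.77-fold higher (log2 change 1.92 ± 0.18, adjusted p = 1.06e-09). In the other settings it did not pass, at 0.32 ± 0.17 in natural 2013, 0.39 ± 0.17 in LD+FR+TEMP and 0.29 ± 0.16 in lab LD. Its time effect in natural 2014 differed from that in natural 2013 (1.59 ± 0.24, adjusted p = 3.58e-05) and in lab LD (1.63 ± 0.24, adjusted p = 6.73e-06). XTH15 also was higher in the evening in natural 2014 (log2 change 1.22 ± 0.31, adjusted p = 0.00216), and at -0.45 ± 0.25, 0.27 ± 0.29 and -0.35 ± 0.30 in natural 2013, LD+FR+TEMP and lab LD it did not pass. Its time effect in natural 2014 differed from that in natural 2013 by 1.67 ± 0.40, adjusted p = 0.00409, and from that in lab LD by 1.56 ± 0.43, adjusted p = 0.00715. Without natural 2014 replicate 3 at ZT16 these 3 values of XTH15 were 0.60 (adjusted p = 0.0471), 1.05 (0.0154) and 0.94 (0.0258). XTH4 fell in the evening in natural 2013 (log2 change -0.58 ± 0.14, adjusted p = 0.00145), with 303, 269 and 332 CPM at ZT16, against 473, 434 and 446 CPM at ZT4, in natural 2013, and passed in no other setting. Its time effect in natural 2013 differed from that in lab LD (-0.77 ± 0.19, adjusted p = 0.006), and that in natural 2014 from that in natural 2013 (0.72 ± 0.19, adjusted p = 0.00979).

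EXPA5 was lower in the evening in 3 settings. It had 46.1, 45.4 and 37.9 CPM at ZT16, against 81.9, 108 and 97.7 CPM at ZT4, in natural 2014, with no overlap. The log2 fold change was -1.15 ± 0.12, adjusted p = 4.88e-09 in natural 2014, -0.71 ± 0.11, adjusted p = 1.96e-05 in natural 2013 and -0.53 ± 0.11, adjusted p = 0.000684 in LD+FR+TEMP, and in lab LD it did not pass (log2 change -0.09 ± 0.11, adjusted p = 0.61). Its time effect differed from that of lab LD in natural 2014 (-1.06 ± 0.16, adjusted p = 8.5e-06) and natural 2013 (-0.62 ± 0.16, adjusted p = 0.00717), while for LD+FR+TEMP the difference was -0.44 ± 0.15, adjusted p = 0.118. EXPA10 was higher in the evening in natural 2013 (log2 change 0.62 ± 0.14, adjusted p = 0.00143), LD+FR+TEMP (log2 change 0.70 ± 0.14, adjusted p = 0.000345) and lab LD (log2 change 0.44 ± 0.14, adjusted p = 0.0181), and lower in natural 2014 (log2 change -0.51 ± 0.14, adjusted p = 0.00498). The evening and morning libraries overlapped in lab LD only. The lab LD call was lost without any 1 of lab LD replicates 1 and 2 at ZT16 and 1 and 3 at ZT4 (0.33 to 0.41, adjusted p = 0.0676 to 0.117), was 0.67 without replicate 2 at ZT4, and was lost in a fit of those 2 groups alone (adjusted p = 0.0897). The natural 2014 call was lost without replicate 2 at ZT4 (-0.38, adjusted p = 0.0523). The time effect of EXPA10 in natural 2014 differed from that in natural 2013 (-1.13 ± 0.20, adjusted p = 0.000277) and lab LD (-0.96 ± 0.20, adjusted p = 0.000502).

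EXPA1 was 2.34-fold lower in the evening in lab LD (log2 change -1.23 ± 0.23, adjusted p = 0.000247), with 173, 175 and 173 CPM at ZT16, against 342, 514 and 363 CPM at ZT4, in lab LD. The 3 evening libraries were almost equal, and the 3 morning ones were spread and higher. It did not pass in the other settings, at -0.29 ± 0.23 in natural 2014, -0.57 ± 0.23 in natural 2013 and -0.18 ± 0.23 in LD+FR+TEMP. Its time effect differed between natural 2014 and lab LD (0.94 ± 0.33, adjusted p = 0.0316). That call was lost without any 1 of 8 of the 12 libraries, lab LD replicates 1, 2 and 3 at ZT16 and 2 at ZT4 and natural 2014 replicates 1 and 2 at ZT16 and 1 and 3 at ZT4 (adjusted p 0.0532 to 0.101), and with DESeq2 (adjusted p = 0.0717). EXPA4 was higher in the evening in natural 2013 (log2 change 0.39 ± 0.13, adjusted p = 0.0241), a call lost without natural 2013 replicate 2 at ZT16 or replicate 1 or 2 at ZT4 (adjusted p 0.0584 to 0.11). EXPA3 passed in no setting. The loci called between evening and morning were 6 of 10 in natural 2014, 5 in natural 2013, 2 in LD+FR+TEMP and 4 in lab LD, where 45.7%, 35.5%, 23.5% and 21.9% of all genes were called. In edgeR fits of the compared groups alone, EXPA1 (adjusted p = 0.00739), XTH15 (0.00664) and XTH9 (0.0408) also passed in natural 2013. EXPA8 (0.00651), XTH22 (0.00404) and XTH9 (0.0203) did so in LD+FR+TEMP, while EXPA10 lost its call in lab LD. Of the 9 root markers tested, 4 were lower at ZT16 in natural 2013 (median -0.94), 1 was lower in natural 2014 (0.22) and none was called in LD+FR+TEMP or lab LD. Of the 6 floral markers, 1 was higher in natural 2014 and 1 in natural 2013, and none was called in LD+FR+TEMP or lab LD. Of the 7 leaf markers 1 was higher in every setting. Another 4 were lower in natural 2014 and in natural 2013, and 3 in LD+FR+TEMP and in lab LD. In LD+FR+TEMP 2 of 2 seed markers tested were lower. The part of these markers in the calls was not tested. The medians of the 10 loci were 0.11, -0.27, -0.011 and 0.046, against 0.038, 0.013, 0.012 and -0.024 for all genes, in natural 2014, natural 2013, LD+FR+TEMP and lab LD.

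Counted over the 10 loci, the time effect differed from that of lab LD in 7 in natural 2014, where 30.3% of all genes did, in 3 in natural 2013 against 17.4%, and in 1 in LD+FR+TEMP against 4.24%. Between natural 2014 and natural 2013 it differed in 6, where 17.1% of all genes did. EXPA4 (-0.53) and EXPA5 (-0.44) did not pass there. Both passed with DESeq2's Wald test (adjusted p = 0.0393 and 0.0399). Of the wall synthesis genes, 6 of 10 were higher and 2 lower at ZT16 than at ZT4 in natural 2014, where 45.7% of all genes were called. CSLC4 had 8.81, 10.7 and 12.3 CPM at ZT16, against 2.20, 3.71 and 3.03 CPM at ZT4, in natural 2014 (log2 change 1.81 ± 0.22, adjusted p = 2.09e-07), and XXT1 was higher as well (log2 change 1.97 ± 0.29, adjusted p = 3.07e-06). CESA5 (log2 change -0.83 ± 0.11, adjusted p = 5.46e-07) and CESA2 (log2 change -0.50 ± 0.11, adjusted p = 0.000715), cellulose synthase subunits, were lower. Of the other XTHs 7 of 21 were higher and 6 lower in natural 2014, beside the same 45.7%, among them XTH28 (log2 change 1.64 ± 0.11, adjusted p = 5.49e-12) and XTH32 (log2 change -2.67 ± 0.12, adjusted p = 5.26e-16). XTH32 had 14.0, 12.7 and 14.0 CPM at ZT16, against 83.6, 92.3 and 83.0 CPM at ZT4, in natural 2014.

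**Figure D4:**
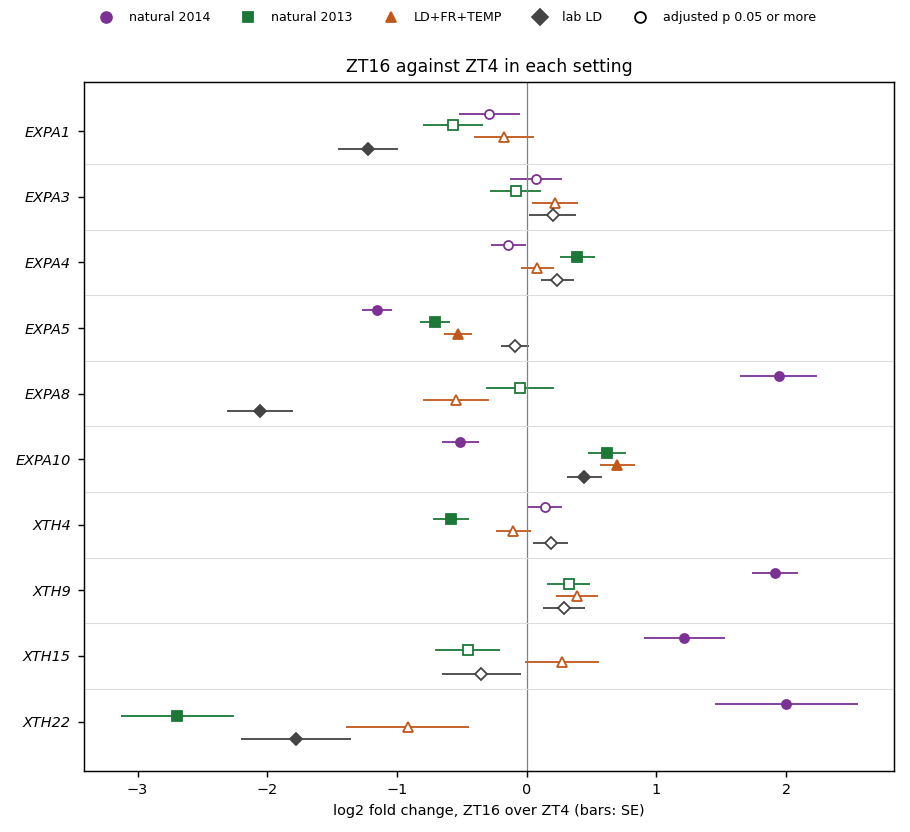
Log2 fold change of ZT16 over ZT4 for the 10 loci in natural 2014 (purple circles), natural 2013 (green squares), LD+FR+TEMP (orange triangles) and lab LD (grey diamonds), with SE bars; filled symbols had an adjusted p under 0.05. EXPA8 and XTH22 lie right of 0 in natural 2014 (1.94 and 2.0) and left of it in lab LD (-2.06 and -1.78).

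The rest of both families were called at other settings as follows. At ZT4 against lab LD, 2 of 21 other XTHs were higher and 9 lower in natural 2014, 4 higher and 1 lower in natural 2013, and 5 higher and 3 lower in LD+FR+TEMP. Of all genes 44.3%, 29.0% and 16.9% were called in natural 2014, natural 2013 and LD+FR+TEMP. XTH27 (log2 change -1.60 ± 0.18, adjusted p = 1.12e-07) fell and XTH32 (log2 change 1.04 ± 0.11, adjusted p = 1.56e-08) rose in natural 2014, XTH24 rose in natural 2013 (log2 change 1.25 ± 0.23, adjusted p = 0.000159), and XTH20, a root gene, rose in LD+FR+TEMP (log2 change 2.14 ± 0.36, adjusted p = 0.000164). Root markers moved beside it, with 2 of 9 tested higher and none lower (median 0.64), and their part was not tested. Of 17 other expansins 2 were higher and 6 lower in natural 2014, 3 higher and 5 lower in natural 2013, and 2 higher and 0 lower in LD+FR+TEMP, beside the same shares of all genes. The β-expansin gene EXPB1 fell in natural 2014 (log2 change -1.79 ± 0.17, adjusted p = 4.95e-09) and natural 2013 (log2 change -0.78 ± 0.15, adjusted p = 0.000385), and EXLA2 rose in natural 2013 (log2 change 1.37 ± 0.16, adjusted p = 1.07e-06). At ZT16 against lab LD, 5 of 21 other XTHs were higher and 6 lower in natural 2014, and 5 higher and 4 lower in natural 2013, where 35.8% and 29.1% of all genes were called in natural 2014 and natural 2013, with XTH31 lower in both (-1.61 ± 0.18, adjusted p = 1.88e-07 and -0.95 ± 0.18, adjusted p = 0.000254). Of the 17 other expansins 1 was higher and 6 lower in natural 2014, EXPA15 among the lower (log2 change -1.29 ± 0.13, adjusted p = 7.28e-08), and 0 higher and 2 lower in natural 2013. In LD+FR+TEMP against lab LD at ZT16, 1 gene of each list passed, XTH14 (log2 change 1.71 ± 0.42, adjusted p = 0.0276) and EXPA11 (log2 change 0.67 ± 0.18, adjusted p = 0.0393), both higher, where 2.65% of all genes were called and 4 of 9 root markers were higher.

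Over the 24 libraries, the gene whose log2 CPM ran most like that of each locus, by Pearson's r, was named as a description. The closest to XTH22 was PHI-1 (r = 0.955), then NUDT21 (0.922), and the closest to EXPA5 were AT1G42440 (0.954) and FLA16 (0.948), a fasciclin-like arabinogalactan protein. XTH9 ran with AT5G07580 (0.946) and PCAP1 (0.944), and EXPA8 with AT3G03870 (0.929) and AT4G17810 (0.928). The nearest to XTH15 were MPK18 (0.89) and CNGC6 (0.886), to EXPA1 GA3 (0.884), an enzyme of gibberellin synthesis, and SUC2 (0.837), the phloem sucrose transporter, and to EXPA10 AT4G21910 (0.882) and AT1G52600 (0.849). EXPA4 was nearest to PDIL1-3 (0.807) and APL3 (0.797), XTH4 to AT1G67470 (0.805) and KCS9 (0.798), and EXPA3 to AT3G18620 (0.785) and ABO5 (0.782). These values share libraries, settings and times of day. Among the 10 loci, over the 8 group means, the highest r was that of EXPA3 with EXPA4 (0.803), followed by EXPA4 with EXPA10 (0.768), EXPA3 with EXPA10 (0.708) and XTH15 with XTH22 (0.67), and the lowest was that of EXPA10 with XTH15 (-0.671).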

How the data were processed

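The authors deposited read counts per transcript model for each library. Per the submitters' processing notes the build was TAIR10, and edgeR, Bowtie2, Trimmomatic 0.36 and bcl2fastq 2.17.1.14 were among the tools. The order, the counting step and the strand are not given in the sources used here. A deposited normalized table was not used. Counts were summed per locus and analysed with edgeR 4.0.16 in R 4.3.3 (limma 3.58.1, DESeq2 1.42.0 as an alternative). The filter kept loci with a minimum count of 10 and a minimum total of 15, 18797 of 27655. Libraries were scaled by TMM, and 1 mean was fitted for each of 8 groups over all 24 libraries, without a block (common dispersion 0.0143). The 18 contrasts were tested by the quasi-likelihood F test with Benjamini-Hochberg adjustment over all tested genes and a threshold of 0.05. Standard errors were obtained from the absolute fold change (log2) over the root of the F statistic. Correlations of log2 CPM used a prior count of 2. Replicates of each group differed beyond counting noise, with a chi-square of 2.75 to 24.5 per degree of freedom, highest in natural 2014 at ZT4. None was therefore taken as a second reading of the same library. The value does not show whether replicates were separate plants or harvests. The test was checked on simulated counts, drawn with the dispersion of 0.0143 for every gene and group. That check does not cover loci of larger or uneven spread, such as XTH22 in lab LD at ZT4 (22.2 ± 19.1 CPM, SD). The 10 loci and the lists of genes were chosen with earlier results of these data known. From each list up to 2 higher and 2 lower genes per contrast were eligible to be named, by smallest adjusted p, and for each locus the 2 genes most correlated with it. CML12, CML38, XTH18 and EXLA1 levels in single libraries were chosen after their values were seen. Promoter windows and coordinates came from RefSeq TAIR10.1.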

Additional observations from a re-analysis of the deposited data

Results flagged for a closer look

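The difference between evening and morning itself differed between settings in 17 of 40 tests of the 10 loci. The test was edgeR's test of the difference of differences (adjusted p under 0.05). Of all genes, 30.3% were called in natural 2014 against lab LD and 17.1% in natural 2014 against natural 2013. The shares were 17.4% in natural 2013 against lab LD and 4.24% in LD+FR+TEMP against lab LD. Values are log2 differences of the ZT16 over ZT4 change. In natural 2014 against lab LD they were 0.94 for EXPA1, -1.06 for EXPA5, 4.00 for EXPA8, -0.96 for EXPA10, 1.63 for XTH9, 1.56 for XTH15 and 3.78 for XTH22. In natural 2014 against natural 2013 they were 1.99 for EXPA8, -1.13 for EXPA10, 0.72 for XTH4, 1.59 for XTH9, 1.67 for XTH15 and 4.69 for XTH22. In natural 2013 against lab LD they were -0.62 for EXPA5, 2.01 for EXPA8 and -0.77 for XTH4, and in LD+FR+TEMP against lab LD 1.51 for EXPA8. EXPA8 appears in all 4 sets. With 1 library left out at a time, the XTH22 value was 2.76 to 4.13 against lab LD and 4.03 to 4.98 against natural 2013, and that of XTH15 0.94 to 1.85 and 1.05 to 1.96. The EXPA1 value, 0.71 to 1.34, and the EXPA8 value of LD+FR+TEMP, 1.37 to 1.68, lost their calls in some of these. The 3 sets against lab LD share its libraries. Groups of 3 libraries were too small for a check of single libraries standing apart by their gap to the next.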

How the results depend on the processing

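Of 180 log2 fold changes of the 10 loci, 76 were called, and no called value changed direction under any alternative. Without a call in either fit, 76 of 2400 alternative values, over 41 results, had the opposite sign. Scaling by DESeq2 size factors kept 179 of 180 on the same side of the threshold and thinning every library to the smallest total 179. No filter on low counts kept 177, DESeq2's Wald test 174 and a fit of the compared groups alone 159. Leaving out 1 library at a time kept 1241 of 1320. With only the groups compared, the genes called were 1838 instead of 3184 for LD+FR+TEMP against lab LD at ZT4, and 1485 instead of 969 for natural 2014 against natural 2013 at ZT16. The loci called were then 8 instead of 3 for natural 2013 against lab LD at ZT16, 6 instead of 3 for natural 2013 against LD+FR+TEMP at ZT16, 5 instead of 2 for ZT16 against ZT4 in LD+FR+TEMP, 8 instead of 5 in natural 2013, and 2 instead of 1 for the time effect of LD+FR+TEMP against lab LD, which was also 2 without a filter. The shares of all genes called in those fits are not given here, so these counts of loci have no share beside them. The 2-group fits estimate the spread from fewer libraries, whereas in the main fit all 8 groups share 1 estimate for each gene. The spread between replicates was uneven. Chi-square per degree of freedom was 3.21 to 3.26 in natural 2013 at ZT16 and 8.82 to 24.5 in natural 2014 at ZT4. The part of this unevenness in the counts of calls was not tested. Thinning left 307 of 499 genes called for LD+FR+TEMP against lab LD at ZT16.

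Leaving out 1 library gave 66 to 1209 genes in that comparison, 339 to 849 for natural 2014 against natural 2013 at ZT16, and 501 to 1023 for the time effect of LD+FR+TEMP against lab LD (797 with all). The loci called ranged from 3 to 5 for LD+FR+TEMP against lab LD at ZT4, 3 to 5 for natural 2013 against LD+FR+TEMP at ZT4 (7 with all libraries), 0 to 2 for natural 2014 against natural 2013 at ZT16 and 0 to 2 for the time effect of LD+FR+TEMP. The cause was not tested. Where a group kept 2 libraries, its spread was assumed to be that of the other groups.

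Replicate numbers did not pair the samples: deviations from group means had a median r of -0.0178 over 84 pairs with the same number and 0.0116 over 168 with different numbers. With a replicate block 175 of 180 values stayed on the same side and 4 gained a call. EXPA8 in natural 2014 against lab LD at ZT16 lost it (0.67, adjusted p = 0.0507). The lowest counts of any locus in a library were 22 for XTH22, 24 for EXPA8 and 26 for XTH15, all in natural 2014 at ZT4, where the relative counting error of these loci is largest.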
